A study of Mus musculus with 9 samples.

Results

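The genes described here are 10 components and transcriptional targets of the Wnt and beta-catenin pathway that brain vessels use to make and keep the blood-brain barrier: Apcdd1, Axin2, Fzd4, Fzd6, Lrp5, Tspan12, Adgra2, Reck, Nkd1 and Lef1. They were picked by symbol, and all 10 were found among the 19937 genes measured, each with 1 probe set that carries no other gene's symbol. They were read on 9 arrays of RNA from sorted cells of wild type C57BL/6 mice, with 3 arrays each for Ly6C-high microglia, for Ly6C-low microglia and for monocytes of the spleen. In the labels the Ly6C-high cells are MgSCs and the Ly6C-low cells bulk microglia. Sorting relied on surface CD45, CD11b, EMR1, Ly6C and MHC II, and no group carried a transgene or received a treatment in the labels. Ages, sexes and the number of mice behind an array are not given there, so the spread behind each p-value is that between arrays and may be technical.

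In canonical Wnt signalling a ligand joins a Frizzled receptor to the co-receptor Lrp5 or Lrp6, the complex of Axin, Apc and Gsk3 that destroys beta-catenin is held back, and beta-catenin enters the nucleus to work with TCF and LEF factors. Brain endothelial cells receive this signal from Wnt7a and Wnt7b through Frizzled receptors together with Adgra2 (also called Gpr124) and Reck, and from Norrin, the product of Ndp, through Fzd4, Lrp5 and Tspan12. Axin2, Nkd1, Apcdd1 and Lef1 are widely used as readouts of the pathway, and the first 3 of these also restrain it.

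The array values are deposited log2 intensities, and each is compared between arrays within a gene, never between genes. Replicates resembled each other least among the Ly6C-high arrays, with correlations between arrays over all probe sets of 0.872 to 0.924 within Ly6C-high microglia, 0.967 to 0.980 within Ly6C-low microglia and 0.978 to 0.983 within monocytes. Markers of other cell types also differed between the groups. Compared with Ly6C-low microglia, Ly6C-high microglia had higher levels of 15 of 16 brain endothelium markers, led by the sialomucin Emcn (log2 fold change 5.18) and the VEGF receptor Flt1 (3.84). Clec14a, the other one, differed by 1.50 (adjusted p = 0.0606). All 11 measured homeostatic microglia markers were lower in Ly6C-high microglia, led by Olfml3 (-3.69) and Fcrls (-3.66). Over all genes 4.49% were called higher and 11% lower in this comparison. The mean log2 level of the 8 measured monocyte markers was 6.91, 9.22 and 5.90 in Ly6C-high replicates 1, 2 and 3. It was 5.74 to 6.24 in the Ly6C-low arrays and 10.06 to 10.32 in the monocyte arrays. That of the 9 neutrophil markers was 5.95 to 7.16 in Ly6C-high microglia, against 7.09, 7.39 and 9.76 in Ly6C-low replicates 1, 2 and 3.

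Between the brain sorts, 7 of the 10 genes were higher and 1 was lower in Ly6C-high than in Ly6C-low microglia, and 2 did not pass the test. Apcdd1 (21.1-fold), Lef1 (11.5-fold), Tspan12 (8.77-fold) and Fzd6 (7.08-fold) rose most, and Nkd1, Adgra2 and Axin2 rose by 3.23-fold to 3.36-fold. Lrp5 was lower, and Fzd4 and Reck were not called. The test was limma's moderated test at an adjusted p of 0.05 (Benjamini-Hochberg, all genes), under which 4.49% of all genes were called higher and 11% lower, or 15.4% in either direction. The median log2 fold change of the 10 genes was 1.73, against 0.05 over all genes. The 3 Ly6C-high arrays lay above all 3 Ly6C-low arrays for 8 of the 10 genes and below them for 1, against 12.9% and 17.2% of all genes (30.1% in either direction). In bulk RNA, fewer cells of a type and less RNA per cell cannot be told apart. With Ly6C-high replicate 2 and also Ly6C-low replicate 3 left out, the arrays with the monocyte and neutrophil signal given above, 6 genes were higher and 1 lower.

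**Figure D1:**
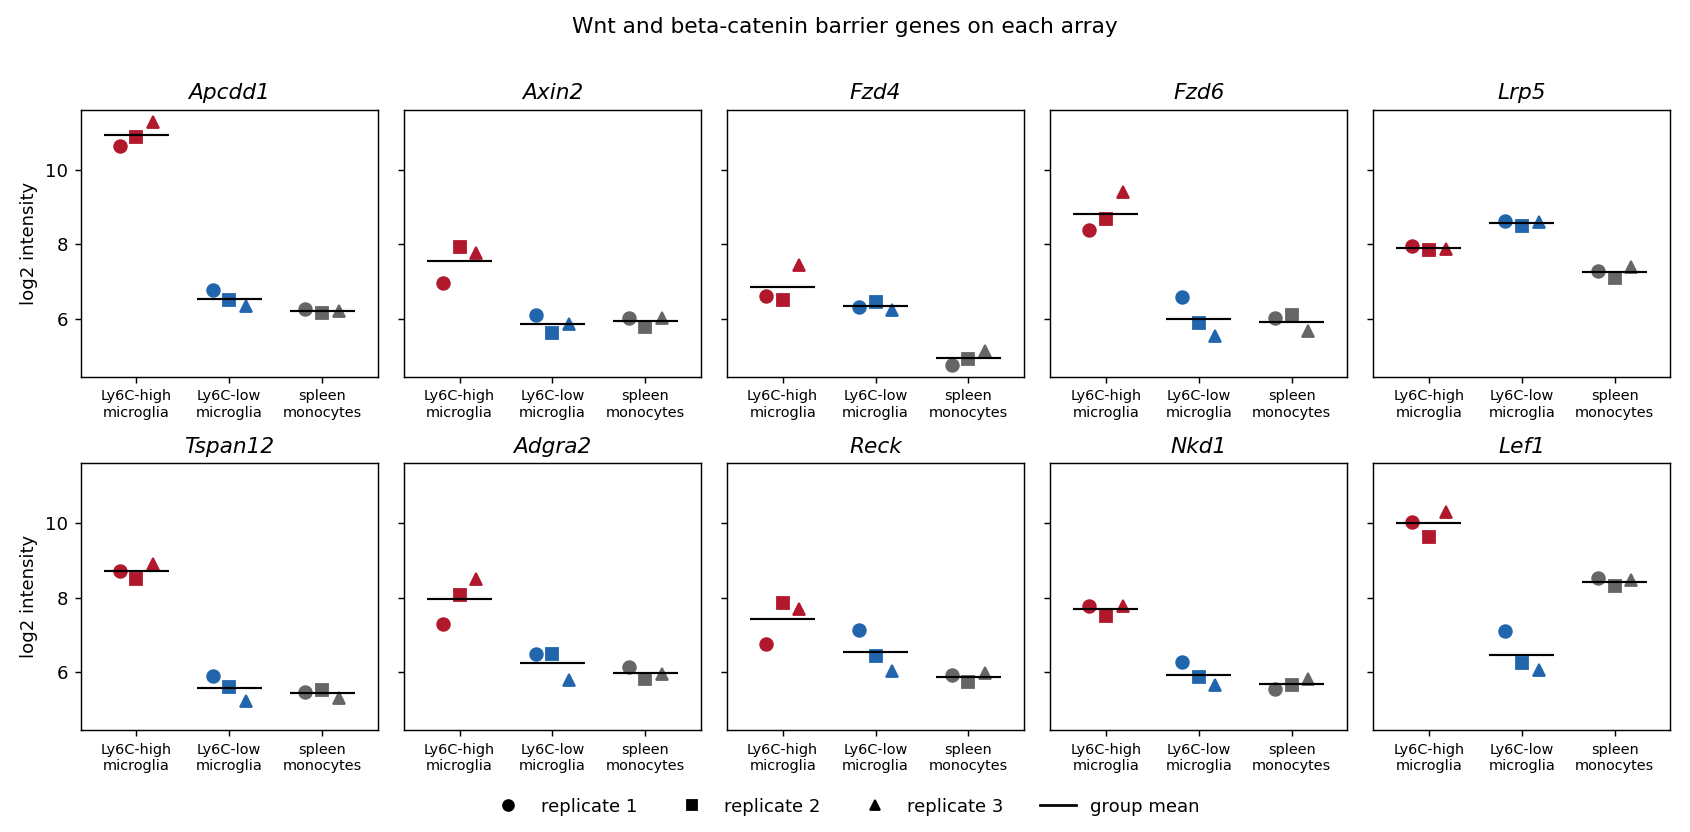
The log2 intensity of each of the 10 genes (vertical axis) on every array of Ly6C-high microglia, Ly6C-low microglia and spleen monocytes (horizontal axis), with a symbol for each replicate and a line at the group mean. The Ly6C-high arrays stand clear of the others for Apcdd1, Tspan12, Fzd6 and Nkd1, Lrp5 is highest in Ly6C-low microglia, and Lef1 is between the brain sorts in monocytes.

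The Norrin receptor was uneven in its parts. Tspan12, the tetraspanin that strengthens Norrin signalling through Fzd4, stood at 8.71, 8.50 and 8.92 in Ly6C-high replicates 1, 2 and 3, against 5.89, 5.60 and 5.24 in Ly6C-low microglia and 5.47, 5.52 and 5.32 in monocytes. The Ly6C-high arrays were all at least 2.60 above the highest Ly6C-low array, and the Ly6C-low and monocyte arrays overlapped. Its log2 fold change between the brain sorts was 3.13 ± 0.18 (SE, adjusted p = 2.82e-05).

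Fzd4, the Frizzled that binds Norrin, stood at 6.61, 6.51 and 7.44 in Ly6C-high microglia, against 6.31, 6.45 and 6.25 in Ly6C-low microglia and 4.77, 4.93 and 5.13 in monocytes. The Ly6C-high arrays lay above the Ly6C-low arrays by a gap of only 0.05 between the nearest, with replicate 3 standing apart, and both brain sorts lay above the monocytes. The difference between the brain sorts was 0.51 ± 0.23 (95% interval of the fit -0.02 to 1.05, adjusted p = 0.193) and was not called. With each array weighted by its own spread it was 0.77 and was called (adjusted p = 0.0461). That fit leaned on Ly6C-high replicate 3, with a weight of 0.995 against 0.138 and 0.417 for replicates 1 and 2.

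Lrp5, the co-receptor that pairs with Frizzled proteins, stood at 7.97, 7.86 and 7.89 in Ly6C-high microglia, against 8.64, 8.49 and 8.61 in Ly6C-low microglia and 7.29, 7.09 and 7.38 in monocytes. The groups did not overlap, and the Ly6C-low arrays were highest. Its log2 fold change was -0.67 ± 0.11 between the brain sorts (adjusted p = 0.0038), a difference that kept its sign but lost its call under quantile normalization (-0.43, adjusted p = 0.118) and cyclic loess (-0.38, adjusted p = 0.134).

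The Wnt7 co-receptors, Adgra2 and Reck, were not compared with each other by a test. Adgra2, an adhesion G protein-coupled receptor, stood at 7.29, 8.08 and 8.52 in Ly6C-high microglia, against 6.49, 6.49 and 5.80 in Ly6C-low microglia and 6.13, 5.82 and 5.95 in monocytes. All Ly6C-high arrays were above all others, and Ly6C-high replicate 1 was the lowest of them. Its log2 fold change between the brain sorts was 1.71 ± 0.31 (adjusted p = 0.0066). With Ly6C-high replicate 2 and also Ly6C-low replicate 3 left out, the call ended (1.42, adjusted p = 0.0545).

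Reck, a membrane-anchored protein that recognises Wnt7 and is also known as an inhibitor of matrix metalloproteinases, stood at 6.77, 7.87 and 7.69 in Ly6C-high microglia, against 7.15, 6.43 and 6.04 in Ly6C-low microglia and 5.93, 5.74 and 5.98 in monocytes. Ly6C-high replicate 1 fell below Ly6C-low replicate 1, so the brain sorts overlapped, while every brain array was above the monocytes. The difference between the brain sorts was 0.90 ± 0.34 (95% interval 0.13 to 1.67, unadjusted) and was not called (adjusted p = 0.120). It was called without Ly6C-high replicate 1 (1.24, adjusted p = 0.0293), without Ly6C-low replicate 1 (1.21, adjusted p = 0.0450) and with array weights (1.31, adjusted p = 0.0134). The array weights gave Ly6C-high replicate 1 the smallest weight (0.138), so that fit is close to leaving this array out.

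Fzd6, a Frizzled receptor best known for planar cell polarity, stood at 8.39, 8.67 and 9.41 in Ly6C-high microglia, against 6.59, 5.88 and 5.53 in Ly6C-low microglia and 6.01, 6.09 and 5.67 in monocytes. The Ly6C-high arrays were above all others, and the Ly6C-low arrays spanned the monocyte range. The log2 fold change between the brain sorts was 2.82 ± 0.32 (adjusted p = 6.65e-04).

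Among the targets that restrain the pathway, Apcdd1, a membrane protein that blocks Wnt at the receptor, had the largest difference of the 10 genes. It stood at 10.64, 10.90 and 11.29 in Ly6C-high microglia, against 6.78, 6.50 and 6.35 in Ly6C-low microglia and 6.27, 6.16 and 6.22 in monocytes. The Ly6C-high arrays lay at least 3.86 above every Ly6C-low array, and the Ly6C-low arrays lay above the monocytes by a gap of 0.08. The log2 fold change between the brain sorts was 4.40 ± 0.18 (adjusted p = 1.15e-05).

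Axin2, a scaffold of the beta-catenin destruction complex and a feedback target of the pathway in most tissues, stood at 6.96, 7.92 and 7.78 in Ly6C-high microglia, against 6.10, 5.62 and 5.87 in Ly6C-low microglia and 6.02, 5.79 and 6.03 in monocytes. All Ly6C-high arrays were above all others, replicate 1 by the least, and the Ly6C-low and monocyte arrays overlapped. The log2 fold change between the brain sorts was 1.69 ± 0.25 (adjusted p = 0.0022).

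Nkd1, which binds Dishevelled and dampens Wnt signalling, stood at 7.78, 7.51 and 7.78 in Ly6C-high microglia, against 6.29, 5.87 and 5.65 in Ly6C-low microglia and 5.55, 5.66 and 5.82 in monocytes. The Ly6C-high arrays were close together (SD 0.15) and all above the others, and the Ly6C-low and monocyte arrays overlapped. The log2 fold change between the brain sorts was 1.75 ± 0.17 (adjusted p = 3.24e-04).

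Lef1, the transcription factor through which beta-catenin acts and itself a target, stood at 10.05, 9.64 and 10.30 in Ly6C-high microglia, against 7.10, 6.26 and 6.07 in Ly6C-low microglia and 8.53, 8.32 and 8.47 in monocytes. The groups did not overlap, with monocytes between the brain sorts. The log2 fold change between the brain sorts was 3.52 ± 0.27 (adjusted p = 1.05e-04).

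Because several of the 10 genes rose together, the bases before their transcription starts were searched for the core letters of the TCF and LEF motif, CTTTGA or CTTTGT, on both strands. RefSeq promoter sequences (GRCm38.p6) were at hand for 6 of the 10 genes, with 9 starts, and the 250 bases before each start were read. A match was found at 3 of the 9 starts, against 27.6% of the 32851 starts of all genes, a share near the background. By gene, 3 of the 6 had a match, and no share by gene was computed over all genes. The starts are few and not independent: 4 belong to Lef1, and the windows of Lef1 starts 1 and 2 overlap. The sequences with a match are shown for Tspan12, Reck and 1 of the 4 Lef1 starts, with that of Axin2, which has none in this window, beside them. Capitals mark the matched letters, and each is written 5′ to 3′ on the strand of the gene.
Tspan12: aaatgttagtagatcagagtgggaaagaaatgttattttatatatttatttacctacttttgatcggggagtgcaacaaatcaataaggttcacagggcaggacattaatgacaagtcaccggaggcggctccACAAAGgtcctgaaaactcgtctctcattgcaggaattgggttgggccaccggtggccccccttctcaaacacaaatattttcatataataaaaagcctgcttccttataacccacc
Reck: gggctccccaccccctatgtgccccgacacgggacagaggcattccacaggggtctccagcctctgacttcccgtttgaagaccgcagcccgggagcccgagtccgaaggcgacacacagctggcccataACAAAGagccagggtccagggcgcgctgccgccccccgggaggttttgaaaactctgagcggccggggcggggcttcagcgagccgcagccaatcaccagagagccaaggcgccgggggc
Lef1: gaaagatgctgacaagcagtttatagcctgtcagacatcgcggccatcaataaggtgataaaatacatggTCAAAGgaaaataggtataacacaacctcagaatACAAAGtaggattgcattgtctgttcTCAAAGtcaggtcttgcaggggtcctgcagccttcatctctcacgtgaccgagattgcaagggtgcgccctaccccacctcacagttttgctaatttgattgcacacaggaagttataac
Axin2: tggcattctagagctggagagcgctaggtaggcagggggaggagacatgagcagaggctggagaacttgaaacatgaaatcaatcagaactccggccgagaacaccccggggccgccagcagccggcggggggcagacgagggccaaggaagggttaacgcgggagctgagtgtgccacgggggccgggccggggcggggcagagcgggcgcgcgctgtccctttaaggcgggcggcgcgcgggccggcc
The Tspan12 sequence is chr6:21852534-21852783 on the minus strand, with 1 match, ACAAAG, that begins 117 bases before the start. The Reck sequence is chr4:43875280-43875529 on the plus strand, with the same letters 120 bases before the start. The Lef1 sequence is chr3:131156044-131156293 on the plus strand and holds 3 matches, at 180, 146 and 120 bases before the start. The 3 other Lef1 starts, which lie nearer the 5′ end of the gene, hold none. The Axin2 sequence is chr11:108920099-108920348 on the plus strand. The Tspan12, Lef1 and Axin2 sequences lie inside the annotated span of their genes, not at its 5′ end. A match is a description of the letters and says nothing of binding.

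Against spleen monocytes, all 10 genes were higher in Ly6C-high microglia, and the arrays of these groups did not overlap for any of the 10. Over all genes, 6.88% were called higher and 24.1% had non-overlapping arrays in that direction (45.9% in either), and the median log2 fold change was 1.95 for the 10 genes against 0.09 for all genes. The largest differences were Apcdd1 (4.72 ± 0.18, 26.4-fold, adjusted p = 3.75e-06), Tspan12 (3.27 ± 0.18, 9.67-fold, 1.63e-05) and Fzd6 (2.90 ± 0.32, 7.47-fold, 5.06e-04). Nkd1 (2.01), Adgra2 (1.99), Fzd4 (1.91), Axin2 (1.61), Reck (1.56) and Lef1 (1.56) were 2.94-fold to 4.03-fold higher, and Lrp5 was 1.57-fold higher (0.65 ± 0.11, adjusted p = 0.0041). The Reck call ended without monocyte replicate 2 (1.49, adjusted p = 0.0520). The comparisons of Ly6C-high microglia with Ly6C-low microglia and with monocytes share the Ly6C-high arrays.

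**Figure D2:**
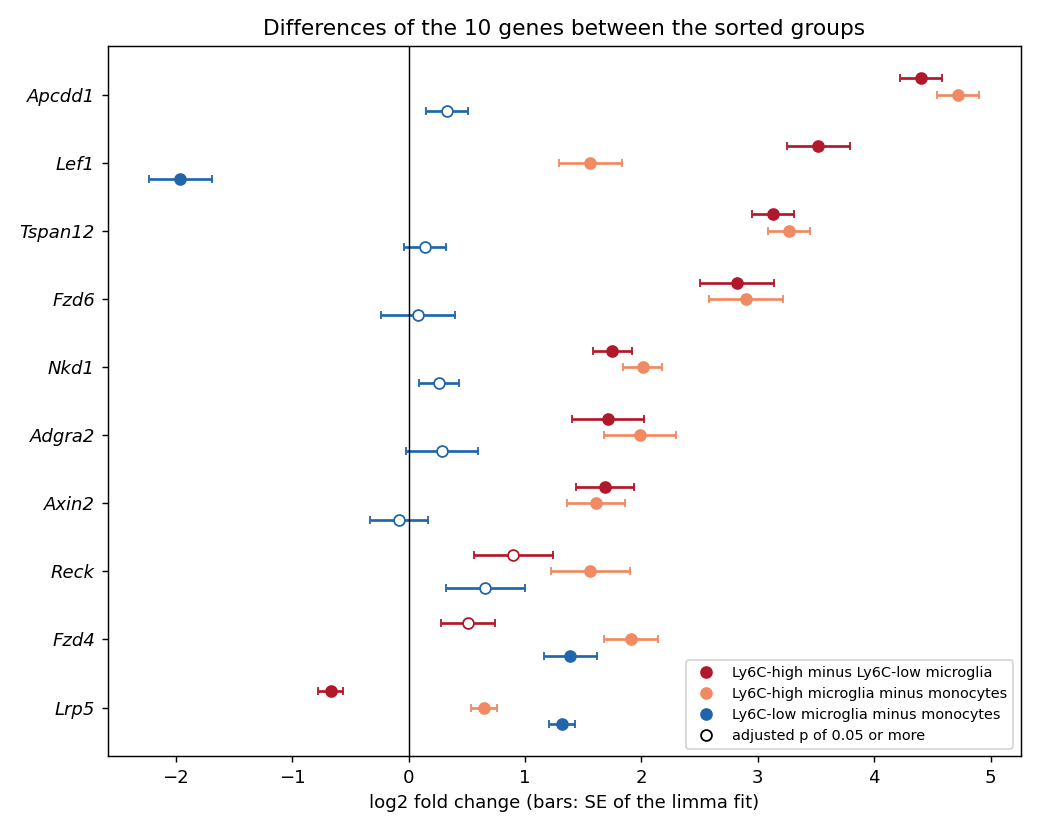
Log2 fold changes of the 10 genes (horizontal axis) for Ly6C-high minus Ly6C-low microglia, Ly6C-high microglia minus monocytes and Ly6C-low microglia minus monocytes, with bars of 1 SE from the limma fit and open symbols for an adjusted p of 0.05 or more. Both differences of Ly6C-high microglia are near each other for Apcdd1, Tspan12, Fzd6, Nkd1, Adgra2 and Axin2, while Lef1, Fzd4 and Lrp5 also differ between Ly6C-low microglia and monocytes.

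Between Ly6C-low microglia and monocytes 3 of the 10 genes passed the test, 2 higher and 1 lower, against 6.80% and 7.71% of all genes. Fzd4 was higher in Ly6C-low microglia by 1.39 ± 0.23 (2.63-fold, adjusted p = 0.0046) and Lrp5 by 1.32 ± 0.11 (2.50-fold, adjusted p = 1.07e-04). Lef1 was lower in Ly6C-low microglia by -1.96 ± 0.27 (3.90-fold, adjusted p = 0.0017). The arrays of these groups did not overlap for 5 of the 10 genes, against 42.3% of all genes. The other 7 genes differed by -0.08 to 0.66, with adjusted p-values of 0.277 to 0.936. The means of Axin2, Fzd6, Tspan12 and Nkd1 in Ly6C-low microglia, and of these and Fzd4, Adgra2 and Reck in monocytes, were below the median of all gene means (6.13), where intensities can lie near background and differences can be compressed.

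Lef1 is also known in T cells, and T cell markers were present in the monocyte arrays. The mean log2 level of the 11 measured T cell markers ranged over 5.28 to 5.54 for Ly6C-high and 5.53 to 5.66 for Ly6C-low microglia, against 7.48 to 7.98 in monocytes. Of the 11 markers 9 were lower in Ly6C-high microglia than in monocytes and 8 were lower in Ly6C-low microglia. Over all genes 14.6% and 7.71% were called lower in these comparisons. Among the markers were Cd3g (-3.89 and -4.08) and Cd2 (-3.73 and -4.01). B cell markers averaged 5.34 to 5.62 in Ly6C-high and 5.50 to 5.83 in Ly6C-low microglia, against 8.19 to 8.78 in monocytes. The part of these cells in the Lef1 level of the monocyte arrays was not tested. Between the brain sorts 1 of the 11 T cell markers was called, the cytokine receptor Il7r (-3.16), against 15.4% of all genes in either direction. The T cell marker means of both brain sorts lay below the median of all gene means (6.13), where intensities can lie near background. The part of T cells in the Lef1 level of the brain sorts was not tested.

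The replicates of a group did not sit level, and in both brain sorts, though not in monocytes, the means of the 10 genes and of the endothelium markers were ordered alike. Ly6C-high replicate 3 was the highest of its group for 7 of the 10 genes. Ly6C-low replicate 1 was highest or tied for highest for 9 of the 10 and Ly6C-low replicate 3 lowest for 8. The mean over the 16 endothelium markers was 9.71, 9.83 and 10.22 in Ly6C-high replicates 1, 2 and 3, against 7.50, 6.94 and 6.28 in Ly6C-low replicates 1, 2 and 3 and 6.26, 6.31 and 6.39 in monocyte replicates 1, 2 and 3. The mean over the 10 genes was 8.12, 8.34 and 8.70 in the Ly6C-high arrays, against 6.73, 6.36 and 6.14 in the Ly6C-low arrays and 6.20, 6.11 and 6.20 in the monocyte arrays. Both means of Ly6C-low replicate 3 were thus at the level of the monocytes, and both means of Ly6C-low replicate 1 were above them. Single genes among the 10 were not level. On Ly6C-low replicate 3 Lef1 (6.07) was below all monocyte arrays, and Lrp5 (8.61) and Fzd4 (6.25) were above them. The 12 pericyte and smooth muscle markers averaged 7.14, 7.07 and 8.16 in Ly6C-high replicates 1, 2 and 3, against 7.0, 6.60 and 6.22 in Ly6C-low replicates 1, 2 and 3 and 5.78 to 5.85 in monocytes, so Ly6C-high replicate 3 stood apart on them. Of these 12 markers 1 was called higher in Ly6C-high microglia than in Ly6C-low microglia (Vtn, 2.28), against 4.49% of all genes. For 5 of the 12 the Ly6C-high arrays were higher with no overlap, against 12.9% of all genes, and the list median was 0.76. The count called higher was 6 with array weights, 3 without Ly6C-high replicate 2, and 2 without Ly6C-high replicate 1 or without Ly6C-low replicate 1. Among the Ly6C-high arrays the largest weight was that of replicate 3 (0.995). The part of endothelial or pericyte RNA in the levels of the 10 genes was not tested.

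**Figure D3:**
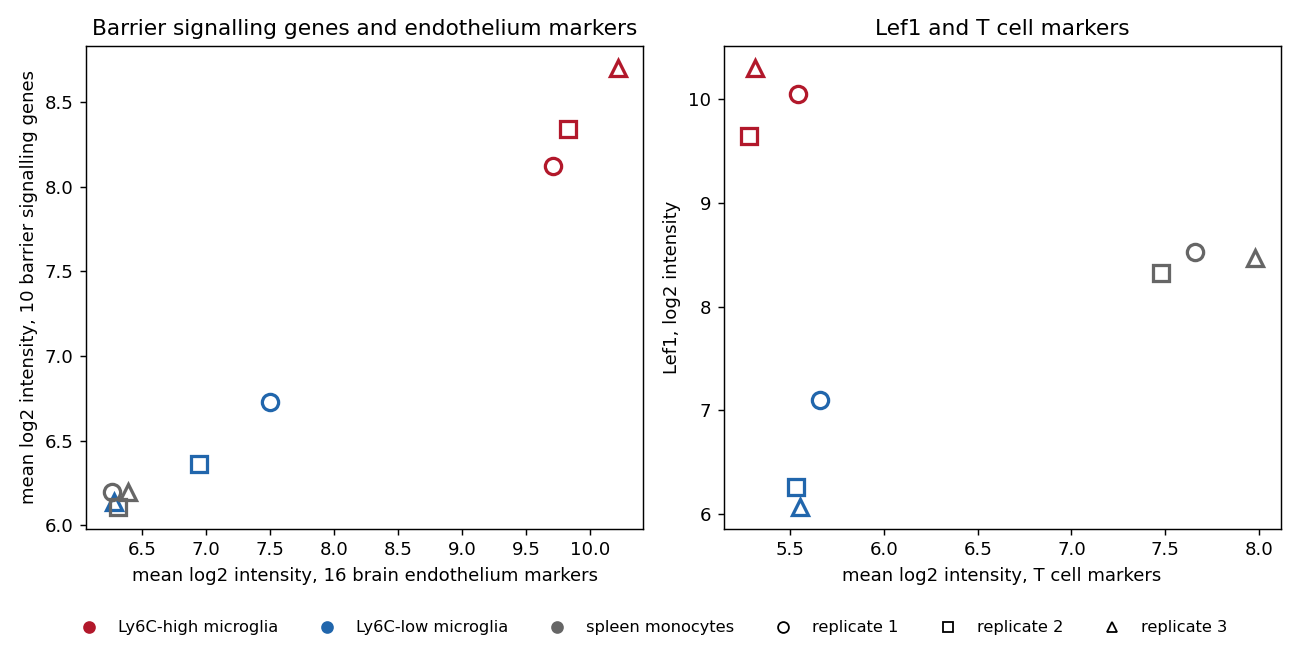
Left, the mean log2 intensity of the 10 barrier signalling genes (vertical axis) against that of 16 brain endothelium markers (horizontal axis) on each array; right, the log2 intensity of Lef1 against the mean of 11 T cell markers. Colours give the group and symbols the replicate; Ly6C-low replicate 1 lies nearest to the Ly6C-high arrays on the left, and the monocyte arrays, at 7.48 to 7.98, stand apart on the T cell axis on the right.

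The rest of the pathway was read from lists of its other genes. Among the 20 ligand genes, the Wnt genes and Ndp, 1 was called between the brain sorts, against 15.4% of all genes in either direction. It was Wnt2b, which was lower in Ly6C-high microglia (-0.60 ± 0.11, adjusted p = 0.0060). The list median was 0.11 against 0.05 for all genes. Just 6 of the 20 had a mean over 6.13, the median of gene means, in any group. The other ligands were dim in every group, where differences can be compressed, so the low count does not show that they were alike. The barrier ligands Wnt7a, Wnt7b and Ndp were below the median of all gene means on every array. Wnt7a stood at 4.91 to 5.12 in Ly6C-high microglia, against 4.77 to 4.91 in the Ly6C-low and 4.88 to 4.91 in the monocyte arrays. Wnt7b was at 5.71 to 5.89 in Ly6C-high microglia, against 5.76 to 5.81 in the Ly6C-low and 5.71 to 5.76 in the monocyte arrays. Ndp was at 4.13 to 4.39 in Ly6C-high microglia, against 3.94 to 4.09 in the Ly6C-low and 3.78 to 4.06 in the monocyte arrays. None of these 3 passed the limma test between the brain sorts (adjusted p = 0.347, 0.959 and 0.290). Against monocytes, Wnt5a (0.74) and Wnt5b (0.60) were higher in Ly6C-high microglia and Wnt2b (0.62) in Ly6C-low microglia. Without monocyte replicate 1 the calls of Wnt5a and Wnt5b ended, and without monocyte replicate 2 that of Wnt5a.

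Of 16 other receptors and co-receptors 2 were called between the brain sorts, both lower in Ly6C-high microglia, against 11% of all genes called lower (list median 0.09). Fzd7 stood at 7.05, 6.82 and 6.86 in Ly6C-high microglia, against 8.09, 7.84 and 7.76 in Ly6C-low microglia and 7.07, 6.91 and 7.01 in monocytes. It was thus higher in the Ly6C-low arrays than in either other group (-0.99 ± 0.12 between the brain sorts, adjusted p = 0.0010). Lrp6, the relative of Lrp5, was lower by -0.56 ± 0.16 (adjusted p = 0.0437), a call lost in 18 of 23 alternatives. Against monocytes, the Wnt receptor Ryk was higher in both Ly6C-high (1.31) and Ly6C-low microglia (0.96), and Fzd7 (0.90) and Lrp6 (0.77) were higher in Ly6C-low microglia, Lrp6 with no call without Ly6C-low replicate 2.

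Of 22 genes for ligand release and extracellular inhibition 1 was called between the brain sorts, Notum, an enzyme that inactivates Wnt ligands and is itself a target, at 6.41, 6.93 and 6.48 in Ly6C-high microglia against 6.08, 6.06 and 6.05 in Ly6C-low microglia and 5.79, 5.77 and 5.75 in monocytes. The arrays did not overlap, and the difference was 0.55 ± 0.14 (adjusted p = 0.0312, lost in 8 of 23 alternatives). The list median was 0.13, and 4.49% of all genes were called higher.

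Of 19 destruction complex and Dishevelled genes 4 were lower in Ly6C-high than Ly6C-low microglia (list median -0.27), against 11% of all genes. They were the kinases Csnk1e (-1.27 ± 0.13, adjusted p = 3.52e-04), Gsk3a (-0.93, adjusted p = 0.0022, lost under cyclic loess) and Csnk1d (-0.74, adjusted p = 0.0497, lost in 17 of 23 alternatives), and Dvl2 (-0.61, adjusted p = 0.0169, lost in 7). The list's split depended on the scaling and on single arrays, with 2 higher and 2 lower under quantile normalization, 1 higher and 1 lower under cyclic loess, 2 higher and 3 lower without Ly6C-high replicate 1, 0 higher and 2 lower without Ly6C-low replicate 3, and 0 higher and 6 lower without Ly6C-high replicate 2. Csnk1e (1.30), Gsk3a (1.13) and Dvl2 (0.58) were in turn higher in Ly6C-low microglia than in monocytes, as was Apc (1.07). In that comparison Dvl2 lost its call in 8 of 23 alternatives, among them without Ly6C-low replicate 1 or 3 and without any 1 of the monocyte arrays. Apc lost it in 5 of 23, with the title number as a block, without Ly6C-low replicate 2 or 3 and without monocyte replicate 1 or 3. Ctnnb1, which encodes beta-catenin, stood at 9.79, 10.53 and 10.63 in Ly6C-high microglia, against 9.47, 9.94 and 9.69 in Ly6C-low microglia and 9.65, 9.69 and 8.96 in monocytes. The brain sorts overlapped, and the difference of 0.62 ± 0.27 was not called (adjusted p = 0.184).

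The TCF factors and nuclear genes of the pathway, corepressors included, were divided, and Tcf7 was not among those measured. Of 15 measured genes 3 were higher and 7 lower in Ly6C-high than Ly6C-low microglia (list median -0.80), against 4.49% and 11% of all genes. The largest differences were Bcl9 (-1.94 ± 0.44), Cbl (-1.62 ± 0.44), the corepressor Tle3 (-1.38 ± 0.32) and Tcf7l2 (-1.24 ± 0.21, adjusted p = 0.0046). Without Ly6C-low replicate 2 or replicate 3, 0 were higher and 4 lower, and Bcl9 and Tle3 were among the calls lost. Cbl lost its call in 13 of 23 alternatives. Tcf7l2, a TCF factor, stood at 7.66, 8.09 and 7.55 in Ly6C-high microglia, against 8.83, 9.02 and 9.17 in Ly6C-low microglia and 8.50, 8.27 and 8.96 in monocytes, lowest in every Ly6C-high array. Tcf7l1 ran the other way, at 6.75, 6.73 and 6.67 in Ly6C-high microglia, against 6.38, 6.19 and 5.93 in Ly6C-low microglia and 5.89, 5.96 and 5.85 in monocytes (0.55 ± 0.13 between the brain sorts, adjusted p = 0.0191).

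Targets used outside the brain split as well. Of 17 general target genes 3 were higher and 3 lower in Ly6C-high than Ly6C-low microglia (list median 0.23), against 4.49% and 11% of all genes. The counts were 1 in each direction without Ly6C-low replicate 2 or without Ly6C-low replicate 3. Tnfrsf19, a receptor also called Troy and known in brain endothelium, stood at 8.13, 8.71 and 8.67 in Ly6C-high microglia, against 6.42, 6.18 and 6.00 in Ly6C-low microglia and 6.28, 6.10 and 6.01 in monocytes. All Ly6C-high arrays were above all others, with a log2 fold change of 2.30 ± 0.18 (adjusted p = 1.14e-04). Notum, given above, and Sp5 (0.40 ± 0.09, adjusted p = 0.0222) were also higher. The lower ones were Myc (-1.96 ± 0.21, adjusted p = 4.80e-04), the differentiation inhibitor Id2 (-1.65) and the cyclin Ccnd1 (-1.61). Id2 lost its call without Ly6C-low replicate 1, 2 or 3, and Ccnd1 without Ly6C-low replicate 2 or 3, with group weights and with 6 arrays in the fit.

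**Figure D4:**
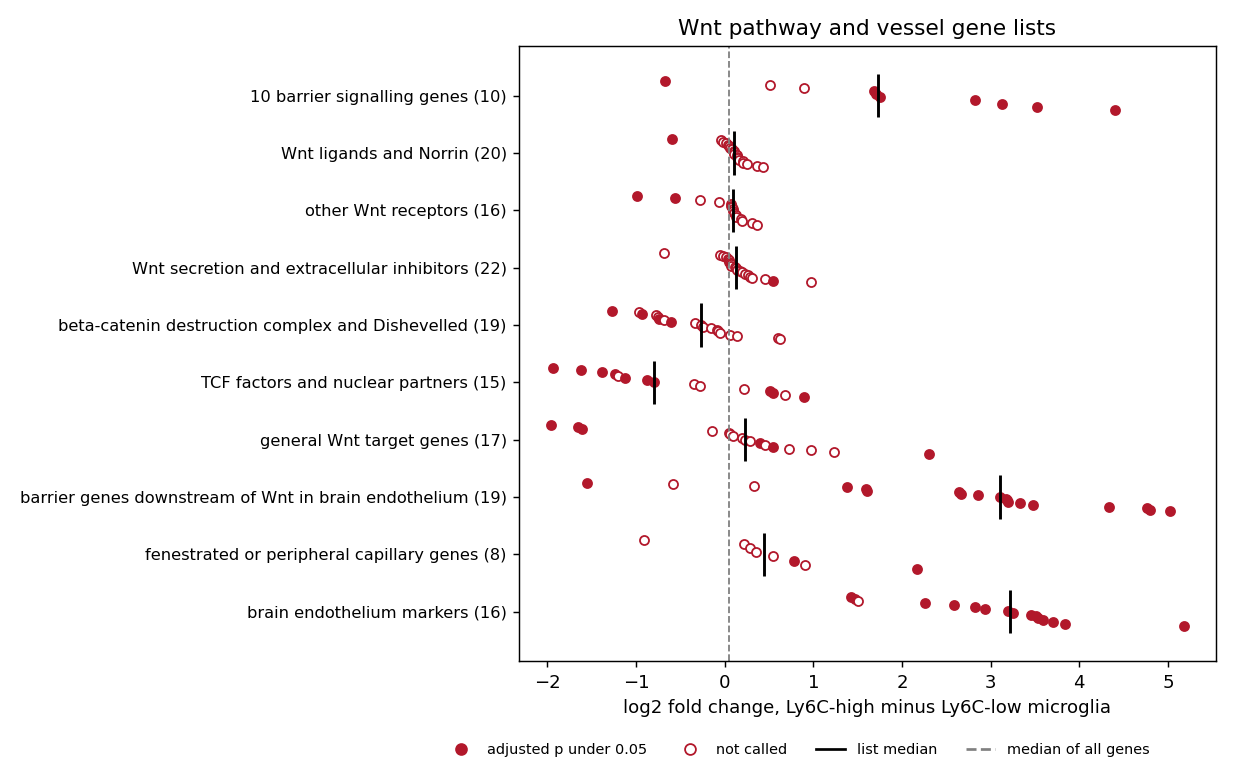
Log2 fold changes of Ly6C-high minus Ly6C-low microglia (horizontal axis) for each measured gene of the 10 barrier signalling genes, the pathway lists, the vessel lists and the brain endothelium markers (rows, with the number of genes), filled where the adjusted p is under 0.05. Black marks are list medians and the dashed line is the median of all genes, 0.05; the medians are 1.73 for the 10 genes, 3.11 for the barrier genes and 3.22 for the endothelium markers, and between -0.80 and 0.44 for the other lists.

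Genes of the barrier that are tied to this pathway in brain endothelium were mostly higher. Of 19 measured, 16 were higher and 1 lower in Ly6C-high than Ly6C-low microglia, and 2 were not called, with a median of 3.11. Over all genes 4.49% were called higher and 11% lower. The rise was not particular to these genes, as 15 of 16 brain endothelium markers were also higher, with a median of 3.22. The largest differences among the barrier genes were the transporters Slco1a4 (5.02 ± 0.63), Slco1c1 (4.80 ± 0.39) and Mfsd2a (4.76 ± 0.23) and the proteoglycan Spock2 (4.34 ± 0.29). Among transcription factors of brain vessels, Foxf2 stood at 8.10, 9.09 and 8.89 in Ly6C-high microglia, against 5.45, 5.55 and 5.09 in Ly6C-low microglia and 5.09, 4.92 and 5.12 in monocytes (3.33 ± 0.25 between the brain sorts, adjusted p = 8.38e-05). Sox17 (3.11 ± 0.47) and Foxq1 (2.67 ± 0.44) were higher too. The gene called lower was Tnfrsf21, the death receptor 6 gene, with 8.68, 8.98 and 8.88 in Ly6C-high microglia, against 9.94, 10.67 and 10.58 in Ly6C-low microglia and 9.91, 9.96 and 10.03 in monocytes (-1.55 ± 0.19, adjusted p = 9.39e-04). Genes of fenestrated or peripheral capillaries, where this signal is low or absent, had 2 of 8 called, Igfbp3 (2.17 ± 0.32, adjusted p = 0.0023) and Esm1 (0.78, adjusted p = 0.0390, lost in 14 of 22 alternatives), with a median of 0.44. Plvap, the fenestral diaphragm gene that the pathway is known to repress, stood at 7.07, 6.46 and 7.75 in Ly6C-high microglia, against 6.77, 6.44 and 6.47 in Ly6C-low microglia and 7.14, 6.77 and 6.82 in monocytes. The groups overlapped (0.54 ± 0.29 between the brain sorts, adjusted p = 0.268).

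For each of the 8 genes called between the brain sorts, the 3 genes with the highest Pearson correlation over the 9 arrays were listed. These are descriptions over 9 arrays that fall into 3 groups. Apcdd1 was most like Sema3c, Mfsd2a and Ccdc141 (r = 0.997 each), Tspan12 like Slc22a8, Ccdc141 and Efr3b (0.996 each), and Nkd1 like Vwa1 (0.997), Efr3b and Slc22a8 (0.995 each). Fzd6 was most like the Notch ligand gene Dll4 (0.996), Prex2 (0.995) and Adcy4 (0.994). Axin2 was most like Amot (0.990), Csrp2 (0.987) and Maob (0.984), and Adgra2 like Pgm5 (0.993), Rasd1 (0.990) and Asb4 (0.989). Lef1, with its intermediate level in monocytes, was most like Gng11 (0.990), Net1 (0.980) and Icam2 (0.979), while Lrp5 was most like Dock4 (0.988), Rapgef5 and Akap8l (0.985 each), which were lower in Ly6C-high than Ly6C-low microglia by -0.65 to -2.12 and higher than in monocytes.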

How the data were processed

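RNA of sorted cells was measured on 9 Affymetrix arrays. The deposited values, for 34760 probe sets on every array, are log2 intensities. RMA and oligo are named for them per the submitters' processing notes, whereas settings, versions and build were not given in the sources used. They lie between 2.54 and 13.81, array medians between 5.83 and 5.96, and no scaling was added. By the platform annotation used here, 21640 probe sets have a single symbol, 1321 have several and 11799 are unnamed. Each gene was represented by its brightest single-symbol probe set, which left 19937 genes. Values of RMA can compress differences of dim genes, and the number of arrays limits the precision.

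With limma 3.58.1 (R 4.3.3), lmFit and eBayes were used to fit 3 group means to all 9 arrays, and each of the 3 contrasts was tested two-sided at an adjusted p of 0.05 (Benjamini-Hochberg over all genes). Every adjusted p is from limma unless another test is named. The code was tested on simulated data. An exact permutation test of 3 against 3 arrays cannot go below 0.10. The members, gene lists, tests and rule for naming were chosen with earlier results of these data known. The text names all 10 genes, up to 4 called genes per pathway list and up to 2 per marker list by size of change, and the 3 genes most correlated with each called gene among genes with an SD of at least 0.5. The following were named outside that rule, after seeing their values: Wnt7a, Wnt7b, Ndp, Ctnnb1, Tcf7l1, Sp5, Foxf2, Sox17, Foxq1, Tnfrsf21, Plvap and Clec14a. Alternatives covered scaling, probe set choice, dim genes, variance models, left-out arrays and replicate blocks. Title numbers gave no clear pairing: deviations of same-numbered arrays correlated at -0.073 to 0.301, and those of other arrays between groups at -0.28 to 0.210. The labels' description numbers match for 2 pairs of brain arrays, which correlated at 0.301 and 0.210, the highest of all pairs between groups. As a random block the description number had a correlation of 0.295. The main fit left the arrays unpaired, and the labels do not say whether these pairs share a sort.

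Further marker lists were read for other cells a sort could hold. Between Ly6C-high and Ly6C-low microglia 15.4% of all genes were called in either direction. Called were 1 of 8 monocyte markers (S100a4, 2.99, lost in 14 of 23 alternatives) and 1 of 7 B cell markers (Cd79b, -0.78, lost in 16 of 23). So were 2 of 9 neutrophil markers (Retnlg, -3.83, and Csf3r, -2.38) and 2 of 9 astrocyte markers (Gja1, 2.32, and Slc1a3, -2.05). The others were 1 of 8 oligodendrocyte markers (Mag, -0.74, lost in 5 of 23) and 2 of 8 neuron markers (Eno2, -0.86, lost in 2 of 23, and Snap25, -0.76, lost in 6 of 22). Calls among monocyte and neutrophil markers are limited by the spread from Ly6C-high replicate 2 and Ly6C-low replicate 3, given above. Of 9 fibroblast and 7 choroid plexus markers limma called 0 between the brain sorts, also at an unadjusted p under 0.05. Against monocytes 1 of the 7 choroid plexus markers was called higher in each brain sort, against 6.88% and 6.80% of all genes. It was Ttr, by 7.44 in Ly6C-high and 7.33 in Ly6C-low microglia.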

Additional observations from a re-analysis of the deposited data

How the results depend on the processing

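Of 21 differences of the 10 genes that passed the test over the 3 comparisons, 18 kept direction and call under all 23 alternatives and 0 reversed. The calls lost were those of Lrp5, Adgra2 and Reck given above, and with Lrp5 gone the count of genes lower in Ly6C-high than Ly6C-low microglia was 0 under quantile normalization and under cyclic loess. The count of genes higher was 6 to 9 over all alternatives, against 7. Differences that did not pass changed sign between Ly6C-low microglia and monocytes for Fzd6 with array weights (-0.15), without Ly6C-low replicate 1 (-0.22) and without monocyte replicate 3 (-0.05), for Tspan12 without Ly6C-low replicate 1 (-0.02) and for Axin2 without Ly6C-low replicate 2 (0.04). Leaving out 1 array at a time, they ranged over -0.22 to 0.31 for Fzd6, -0.02 to 0.31 for Tspan12 and -0.20 to 0.04 for Axin2, and the cause was not tested. As a replicate block, the title number left 8 of the 10 genes called between the brain sorts (7 higher, 1 lower), 10 against monocytes for Ly6C-high and 3 for Ly6C-low microglia, and the description number as a random block gave the same counts. Over all genes, 3080 were called between the brain sorts, against 2011 without Ly6C-low replicate 2, 1956 without Ly6C-low replicate 3 and 2038 with 6 arrays in the fit. For Ly6C-high microglia against monocytes the counts were 4290, 2505 without monocyte replicate 1 and 2511 without monocyte replicate 2. For Ly6C-low microglia against monocytes they were 2894, 1864 without monocyte replicate 1, 4614 with 6 arrays, 5738 with array weights and 5175 with group weights. The share of calls that were higher was 40.8% under quantile normalization and under cyclic loess, against 29.1% for the brain sorts, and 45.1% and 43.5%, against 32%, for Ly6C-high microglia against monocytes. The exact permutation test gave 0.10, its smallest p, wherever arrays did not overlap. Levels below the median of gene means limit what can be said of Axin2, Fzd6, Tspan12 and Nkd1 in Ly6C-low microglia and monocytes.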
